A study of Drosophila melanogaster with 72 samples.

Results

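Embryos carrying Flag-tagged IntS11 with the E203Q change were compared with wild type embryos of the same rescue experiment, both collected 1 to 1.5 h into development. The comparison took the 2 libraries titled FlagIntS11E203Q Rescue and the 2 titled WT for Rescue at that window, 4 of the 72 libraries of the series, and all genes in their expected count columns. The series profiled RNA of Drosophila melanogaster embryos and larvae with altered IntS11 or IntS9, and its stated purpose was to follow zygotic gene activation. The rescue experiment held 4 lines in 2 windows with 2 libraries each (16 libraries): WT, IntS11mislocalized, FlagIntS11WT and FlagIntS11E203Q, at 1 to 1.5 and 2.5 to 3 h. The labels name the lines only by these words. They do not say which promoter drives the Flag transgenes, whether these sit in the mislocalized line, what the genetic background of each line is, or whether the libraries of a group came from separate collections. The p-values therefore measure only the spread between these libraries, which may be technical.

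Integrator is a large complex that binds RNA polymerase II, and IntS11 is its endonuclease subunit, which works as a pair with IntS9 and with the scaffold IntS4. The complex cleaves the nascent transcripts of spliceosomal snRNA genes to form their 3′ ends, and it also ends transcription early at many protein-coding genes. E203Q replaces a residue of the catalytic centre of IntS11 and is known as a change that inactivates cleavage. In the fly embryo the first hours run on RNA supplied by the mother, and a small set of genes, the minor wave, is transcribed before the main activation of the zygotic genome.

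The E203Q libraries held 14093816 and 15995005 expected counts (reads assigned to genes by the authors' RSEM run) and the wild type libraries 11089353 and 14821253. At least 1 count was found for 10786 and 10942 genes in E203Q embryos and for 9024 and 9335 genes in wild type embryos. The mislocalized libraries, with 16581939 and 17960957 counts, held 9629 and 9744 such genes, and the FlagIntS11WT libraries, with 16490499 and 15608234 counts, 9675 and 9618. Levels below are CPM (the count of a gene over the library size after TMM adjustment), not corrected for transcript length, and changes are log2 differences from edgeR's quasi-likelihood test, called at an adjusted p (Benjamini-Hochberg, over all genes tested) under 0.05. In whole embryos fewer nuclei or cells that make an RNA and less RNA from each cannot be told apart. The labelled tissue matched its markers: the 10 maternally loaded RNAs checked, such as osk and smg, summed to 6102 and 6047 CPM in E203Q embryos and 6434 and 6329 CPM in wild type.

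IntS11 (chromosome 3R, 29745337 to 29747513 in dm6) stood at 2093 and 1945 CPM in the E203Q libraries and at 123 and 129 CPM in wild type, a log2 difference of 4.0 ± 0.06 (SE, n = 2 libraries per group; edgeR adjusted p = 1.75e-24). The FlagIntS11WT libraries held 2049 and 2208 CPM and the mislocalized libraries 126 and 125 CPM. Both Flag lines thus lay far above the other lines, and the difference between them (E203Q minus FlagIntS11WT) was -0.08 ± 0.05 (edgeR adjusted p = 0.241). Counts per gene do not tell transgenic from endogenous transcripts, nor E203Q from the unchanged sequence, so the point change itself was not checked here. IntS9, the partner of IntS11 in the cleavage module, was at 62.4 and 62.4 CPM in E203Q embryos and at 63.7 and 57.8 CPM in wild type, and was not called (0.04 ± 0.06, edgeR adjusted p = 0.606). Of the 11 other Integrator subunits tested, 2 were higher (18.2%) and 1 was lower (9.09%), below the 27.7% and 21.6% of all genes tested.

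Transcripts of w, which encodes an ABC transporter needed for eye pigment, separated all 3 altered lines from wild type. They were at 0.974 and 0.944 CPM in wild type, 2169 and 2298 CPM in E203Q, 1452 and 1451 CPM in the mislocalized line and 2881 and 3188 CPM in FlagIntS11WT embryos. Whether w differs through another genetic difference between the lines or through the altered IntS11 was not tested. Any other difference between these lines cannot be told apart from the E203Q change in this contrast.

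Of 9156 genes tested in E203Q against wild type, 4513 were called, which is 49.3% of them. A rise was called for 2534 genes (27.7%) and a fall for 1979 (21.6%). With RLE size factors in place of TMM the split turned over, with 44.5% of calls higher instead of 56.1%. Counts of rises and falls within gene lists are to be read beside the shares of all genes. The large changes were mostly rises: 1333 genes (14.6%) rose at least 2-fold and 206 (2.25%) fell at least 2-fold. Most of the rising genes were barely present in wild type embryos. Of the 1333, 1006 (75.5%) had a mean below 1 CPM in wild type, against 21.1% of all genes tested, and their median level was 0.167 CPM in wild type and 1.58 CPM in E203Q. Of the 1832 genes lowest in wild type (up to 0.761 CPM) 52.4% rose at least 2-fold, and of the 1831 highest (from 145 CPM) 0.0546%. The filter on low counts ran over all 16 libraries, so a gene near 0 in these wild type libraries could pass it through any other group. In E203Q embryos 239 of the 1333 reached 10 CPM. The rising genes spanned a median of 4505 bases on the genome, against 2856 for all genes tested. The 206 falling genes were shorter, with a median of 2219 bases, and 29.8% of them had a transcript of a single exon, against 12.8% of all genes tested. Among them were 22 of the 33 snRNAs and snoRNAs tested, some of which are copies with the same values.

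**Figure D1:**
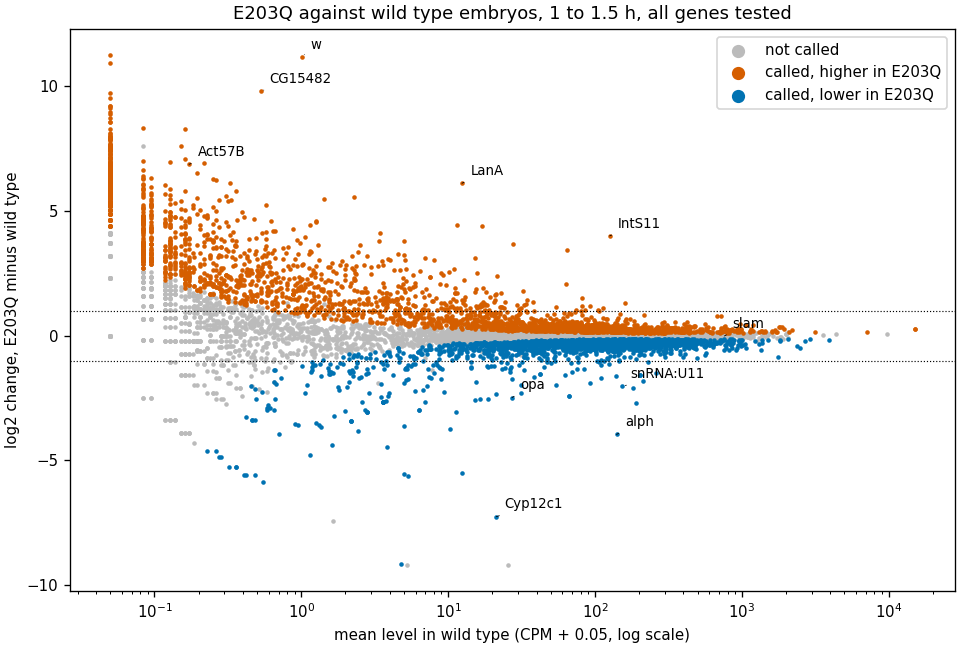
Log2 change of each of the 9156 genes tested (vertical axis, E203Q minus wild type) against its mean level in the 2 wild type libraries (horizontal axis, CPM + 0.05, log scale). Orange and blue points were called higher and lower by edgeR, grey points were not called, and the dotted lines mark 2-fold. The large rises sit at the left, among genes below 1 CPM in wild type, while w, CG15482, LanA and IntS11 stand apart above the cloud.

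All 12 spliceosomal snRNA genes tested were lower in E203Q embryos than in wild type, with a median log2 change of -2.41, beside 0.02 for all genes. They are copies of U1 (4) and U2 (6) with U11 and U12, out of 28 such genes in the files; no copy of U4, U5 or U6 passed the filter on low counts. U11 snRNA, which recognises the 5′ splice site of minor introns (chromosome 3L, 3893056 to 3893330), was at 34.7 and 40.2 CPM in E203Q and at 153 and 153 CPM in wild type (-2.03 ± 0.14, edgeR adjusted p = 3.84e-07). The mislocalized libraries held 41.9 and 61.2 CPM and the FlagIntS11WT libraries 100.5 and 116 CPM, so E203Q lay lowest, mislocalized next and FlagIntS11WT between these and wild type. E203Q was below FlagIntS11WT by a log2 difference of -1.52 ± 0.14 (edgeR adjusted p = 7.93e-06) and below the mislocalized line by -0.46 ± 0.15 (edgeR adjusted p = 0.0294). U12 snRNA, its partner at the branch site, was at 37.5 and 36.7 CPM in E203Q and at 78.7 and 74.2 CPM in wild type (-1.04 ± 0.17, edgeR adjusted p = 0.000652). FlagIntS11WT embryos held 77.6 and 77.4 CPM of U12, inside the wild type range.

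The U2 snRNA, which pairs with the branch site of major introns, has near-identical copies whose reads could be split between them, so single copies are uncertain. Summed over the 6 copies, U2 was at 224 and 246 CPM in E203Q embryos, 756 and 1066 CPM in wild type, 258 and 343 CPM in the mislocalized line and 458 and 481 CPM in FlagIntS11WT. All 6 copies were lower than in wild type and all 6 were lower than in FlagIntS11WT, but snRNA:U2:34ABb and snRNA:U2:34ABc have the same values in every library at 1 to 1.5 h, so the copies are not separate measurements. For the copy snRNA:U2:34ABa the mislocalized libraries held only 0.256 and 0.535 CPM, against 26.8 and 31.8 CPM in E203Q and 161 and 219.7 CPM in wild type. U1 snRNA was rarely counted. Its copies summed to 0.351 and 0.992 CPM in E203Q and 6.46 and 10.7 CPM in wild type, and the 4 copies tested were called lower. Of these, snRNA:U1:21D, snRNA:U1:95Ca and snRNA:U1:95Cb have the same values, with 6 counts each in E203Q and 58 in wild type, so they stand for 1 measurement. Of 20 snoRNA and scaRNA genes tested, whose products guide RNA modification, 13 were lower (65%, beside 21.6% of all genes) and 1 was higher (5%, beside 27.7%). Their median was -1.06. The mislocalized and FlagIntS11WT lines had medians of -0.76 and -0.91 against the same wild type libraries, and E203Q was lower than FlagIntS11WT for 5 of the 20 and lower than the mislocalized line for 1.

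Other noncoding RNAs moved in different directions. The 7SK RNA, which holds the elongation factor P-TEFb inactive, was at 2125 and 2493 CPM in E203Q and 1975 and 2163 CPM in wild type (0.16 ± 0.08, edgeR adjusted p = 0.103). It was called higher when genes of low count were kept in the fit (0.165, edgeR adjusted p = 0.00668) and with the replicate number as a block (0.156, edgeR adjusted p = 0.00505). Without the first E203Q library the change of 7SK was 0.269. RNase P RNA, the catalyst of tRNA 5′ end formation, rose from 73.4 and 88.7 CPM to 219.6 and 251 CPM (1.53 ± 0.15, edgeR adjusted p = 2.31e-05). It was as high in the other altered lines, at 256 and 282 CPM in the mislocalized line and 270.3 and 329.6 CPM in FlagIntS11WT. RNase MRP RNA, needed for rRNA processing, fell from 891 and 946 CPM to 611 and 620.1 CPM (-0.58 ± 0.10, edgeR adjusted p = 0.000498).

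Genes that lie downstream of snRNA genes on the same strand were looked up in the annotation. Within 8 kb of the 32 annotated snRNA genes lay 15 such genes, of which 11 were tested. Of these 6 rose, 5 of them at least 2-fold, and 4 fell. Over all genes tested 27.7% rose, 14.6% at least 2-fold, and 21.6% fell. The set was chosen with these values known. It took every gene annotated as snRNA, among them U6atac and 7SK, which is not a spliceosomal snRNA. The gene CG1142, named below, lies 772 bases past 7SK. CG15482 (chromosome 2L, 13210773 to 13211814) begins 111 bases past the end of snRNA:U2:34ABa and was at 414 and 424 CPM in E203Q against 0.62 and 0.337 CPM in wild type (9.81 ± 0.13, edgeR adjusted p = 7.54e-26). It was at 170.1 and 179.5 CPM in the mislocalized line and at 5.48 and 4.22 CPM in FlagIntS11WT, and E203Q exceeded the mislocalized line by 1.26 ± 0.06 (edgeR adjusted p = 6.72e-15). CG15482 stands among the largest rises of the whole contrast in level as well as in fold.

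CG16820, 1258 bases past snRNA:U5:34A, was at 19.0 and 20.1 CPM in E203Q and 0.266 and 0.0674 CPM in wild type (6.92 ± 0.26, edgeR adjusted p = 2.36e-16). It was at 6.47 and 6.24 CPM in the mislocalized line and at 0 and 0.0681 CPM in FlagIntS11WT. CG13962, 1082 bases past snRNA:U2:38ABa, was at 3.72 and 4.15 CPM in E203Q, and wild type held 1 count in all, a ratio of 103 with a 95% counting interval of 18.2 to 4109. The noncoding gene lncRNA:CR45348, 3441 bases past snRNA:U1:21D, had no count in either wild type library and 0.772 and 1.43 CPM in E203Q, at least 9.74-fold higher against a floor of 3 counts over the group. The mislocalized line held 3.59 and 3.15 CPM of CG13962 and 0.513 and 0.535 CPM of lncRNA:CR45348, and FlagIntS11WT was at or near 0 for both. Farther away, l(2)k05911 (6535 bases) rose by 2.89 ± 0.52 and FASN1 (7767 bases), a fatty acid synthase, by 0.70 ± 0.15 (edgeR adjusted p = 7.49e-05 and 0.000409). The 4 that fell, CycE, mRF1, CG16812 and CG1142, did so by small amounts, from -0.24 to -0.34, of which those of mRF1 and CG1142 lost their call with some single libraries left out, and ND-B17, at 56.8 and 55.96 CPM against 51.2 and 55.02 CPM, was not called. The sources used here do not state whether read strand entered the counting.

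**Figure D2:**
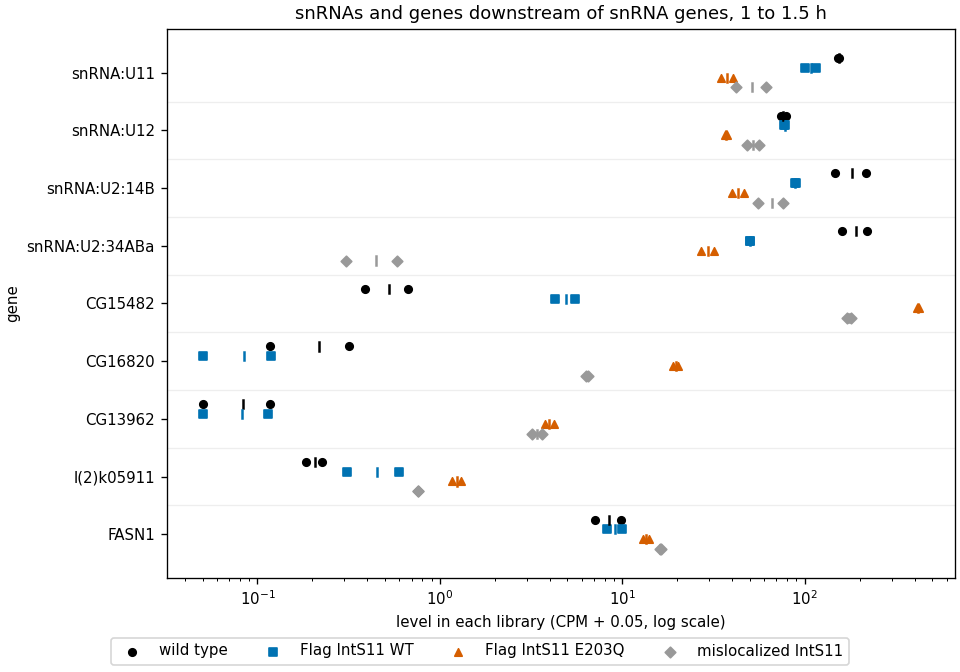
Level of 4 snRNAs and 5 genes downstream of snRNA genes in each library at 1 to 1.5 h (horizontal axis, CPM + 0.05, log scale), with 2 libraries per line as points and their mean as a short bar. For U11, E203Q sits at 34.7 and 40.2 CPM and wild type at 153 CPM, while for CG15482, CG16820 and CG13962 the order turns over, with E203Q at the right and wild type and FlagIntS11WT at the left.

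Early zygotic genes took a mixed course in E203Q embryos. Of 6 cellularization genes, which build the membranes of the blastoderm cells, 2 rose (33.3%, beside 27.7% of all genes) and 3 fell (50%, beside 21.6%). Their median was -0.11. Transcripts of slam, a membrane growth factor of the furrow, were at 763 and 749 CPM in E203Q and 757 and 765 CPM in wild type (-0.01 ± 0.05, edgeR adjusted p = 0.883). The actin regulator Sry-alpha was at 204 and 205 CPM against 181 and 189 CPM, and bnk, which restrains furrow closure, at 98.9 and 101 CPM against 89.1 and 91.7 CPM. Both rises are 0.14 in log2, and neither was called with RLE size factors, at 0.074 and 0.075 (edgeR adjusted p = 0.237 and 0.273), or with 1 of several libraries left out. The lowest relative to wild type was nullo, which stabilises the furrow, at 10.6 and 11.4 CPM against 20.01 and 25.5 CPM (-1.06 ± 0.13, edgeR adjusted p = 4.76e-07). The other falls were those of dunk, from 60.4 and 60.1 CPM to 40.5 and 41.2 CPM (-0.56 ± 0.06, edgeR adjusted p = 6.63e-08), and halo (-0.22 ± 0.07, edgeR adjusted p = 0.0117), of which that of halo lost its call with some single libraries left out. In the mislocalized line the same genes were far lower, for example 16.2 and 16.1 CPM for Sry-alpha and 6.73 and 5.999 CPM for bnk, and all 6 were higher in E203Q than there, with a median difference of 3.31.

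Of 20 other minor wave genes, 4 rose (20%, beside 27.7% of all genes) and 12 fell (60%, beside 21.6%) against wild type. Their median was -0.36. The rises were led by sisA, an X-linked activator that counts X chromosomes, at 37.7 and 36.0 CPM in E203Q and 10.9 and 11.3 CPM in wild type (1.72 ± 0.10, edgeR adjusted p = 1.76e-12). FlagIntS11WT embryos held 14.5 and 13.9 CPM of sisA. Transcripts of spo, a cytochrome P450 of ecdysteroid synthesis, rose from 23.3 and 22.1 CPM to 47.6 and 52.4 CPM (1.15 ± 0.08). The steepest fall was that of link, from 92.0 and 92.6 CPM to 24.8 and 24.9 CPM (-1.89 ± 0.06, edgeR adjusted p = 1.63e-17), and FlagIntS11WT stood at 86.2 and 93.7 CPM. Ptr, a Patched-related membrane protein, fell from 111 and 108 CPM to 34.5 and 33.5 CPM (-1.69 ± 0.06), and the SoxB factor D fell by 1.67 on the log2 scale. All 20 genes were higher in E203Q than in the mislocalized line, with a median difference of 2.74, including link, which the mislocalized line held at 6.02 and 5.64 CPM. Against FlagIntS11WT 6 of the 20 were higher in E203Q and 7 lower, with a median of -0.05. The FlagIntS11WT line itself had a median of -0.24 against the same wild type libraries.

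Gap and pair-rule genes were mostly lower than in wild type and higher than in the mislocalized line, and in FlagIntS11WT embryos their medians lay about as far below wild type (-0.76 and -0.73, against the same wild type libraries). Of 10 gap genes 1 rose (10%, beside 27.7% of all genes) and 7 fell (70%, beside 21.6%). Their median was -0.74, and all 10 exceeded the mislocalized line. Against FlagIntS11WT 3 were higher and 2 lower, with a median of -0.07. Kr fell from 27.2 and 26.2 CPM to 15.02 and 12.9 CPM (-0.94 ± 0.12), gt by 0.76 and kni by 1.21 on the log2 scale, while tll, at 14.2 and 13.4 CPM against 13.9 and 14.3 CPM, was not called. FlagIntS11WT embryos held 17.9 and 12.5 CPM of Kr, 18.6 and 17.8 CPM of gt and 9.80 and 10.8 CPM of kni, and of these E203Q differed from it in kni (-0.29, edgeR adjusted p = 0.0391). The gene that rose was hkb, which was not called with DESeq2 (0.312, DESeq2 adjusted p = 0.0587) or without the second wild type library (0.141, edgeR adjusted p = 0.439). Of 9 pair-rule genes 8 fell (88.9%), with a median of -0.89. Against FlagIntS11WT 2 were higher and 5 lower, with a median of -0.33. The zinc finger gene opa fell from 27.0 and 27.4 CPM to 4.63 and 5.08 CPM (-2.48 ± 0.12, edgeR adjusted p = 1.58e-14), ftz by 1.46 and run by 1.34 on the log2 scale, while prd was at 16.4 and 14.6 CPM against 16.9 and 16.3 CPM and was not called. FlagIntS11WT embryos, with 17.02 and 13.4 CPM of opa, lay between, while for eve they lay lowest of the 3, at 8.77 and 8.10 CPM against 12.7 and 13.8 CPM in E203Q and 19.7 and 20.5 CPM in wild type. Of 8 segment polarity genes 3 rose (37.5%, beside 27.7% of all genes) and 2 fell (25%, beside 21.6%). The Hedgehog receptor gene ptc fell by 1.01 and the Wnt inhibitor nkd by 1.20 on the log2 scale, while gsb, a paired-type factor, rose by 1.15 ± 0.17.

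Of 23 dorsoventral genes 3 rose (13%, beside 27.7% of all genes) and 12 fell (52.2%, beside 21.6%), with a median of -0.42. The mesoderm-expressed insulin-like peptide gene Ilp4 fell from 6.82 and 7.08 CPM to 1.19 and 0.992 CPM (-2.67 ± 0.19, edgeR adjusted p = 6.35e-11). The FGF ligand gene ths fell from 3.28 and 2.43 CPM to 0.421 and 0.682 CPM (-2.31 ± 0.31), and FlagIntS11WT embryos held 3.74 and 3.47 CPM of it. The mesoderm factors twi and sna fell by 0.88 and 0.47 and the BMP antagonist sog by 0.60 on the log2 scale. The neuroectodermal homeobox gene ind rose from 0.885 and 1.08 CPM to 7.09 and 7.50 CPM (2.87 ± 0.27, edgeR adjusted p = 7e-09). Against the mislocalized line 22 of the 23 were higher in E203Q.

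Regulators of genome activation and genes of X chromosome counting were mostly lower. Of 12 regulators of genome activation 11 fell (91.7%, beside 21.6% of all genes) and none rose, with a median of -0.25. The pioneer factor gene zld stood at 426 and 398 CPM in E203Q, 555 and 559 CPM in wild type, 405 and 335 CPM in the mislocalized line and 409 and 329 CPM in FlagIntS11WT (-0.43 ± 0.09 against wild type, edgeR adjusted p = 0.00179). Of 10 genes of X chromosome counting 1 rose (10%, beside 27.7% of all genes) and 7 fell (70%), with a median of -0.40. This list also holds zygotic genes named above, such as sisA, which rose, and run, which fell. The sex determination switch Sxl was at 123 and 112 CPM against 199 and 200.5 CPM in wild type (-0.76 ± 0.08), and the helix-loop-helix partner da fell by 0.77. For zld, Sxl and da the 3 altered lines lay together below wild type, and the differences of E203Q from the other lines were not called.

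**Figure D3:**
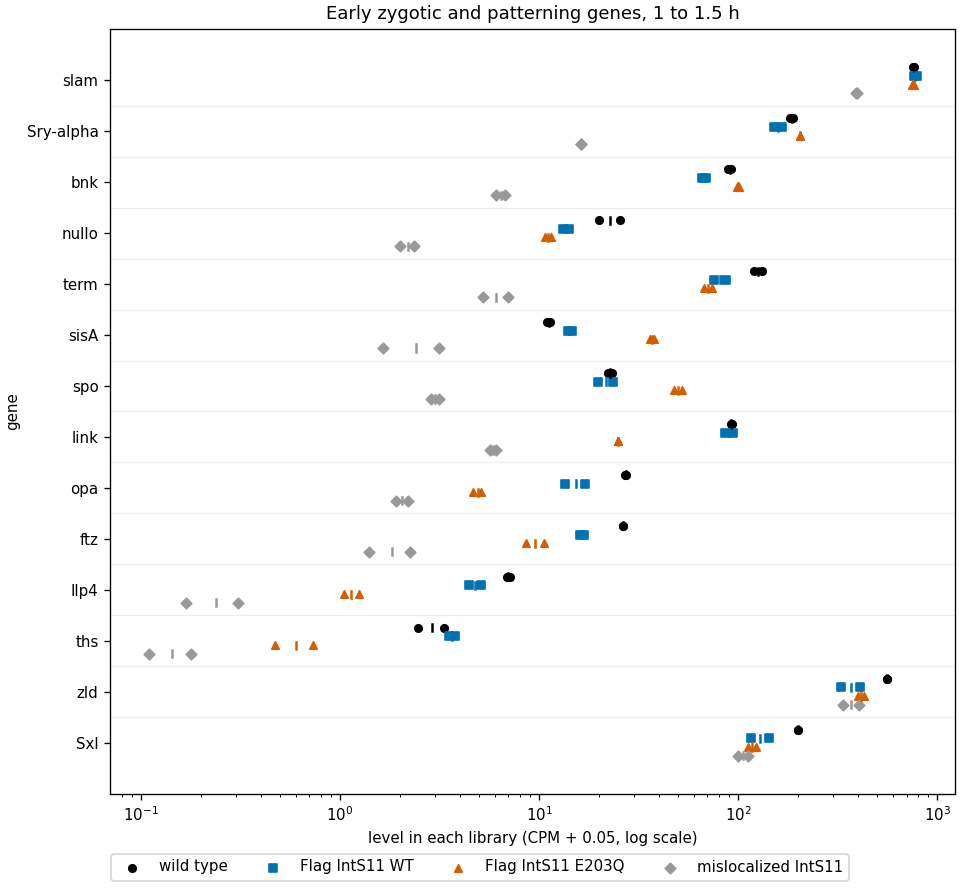
Level of 14 early zygotic, patterning and regulatory genes in each library at 1 to 1.5 h (horizontal axis, CPM + 0.05, log scale), with 2 libraries per line as points and their mean as a short bar. E203Q lies with wild type for slam, Sry-alpha and bnk and to the right of it for sisA and spo. It lies between wild type and the mislocalized line for link, opa, ftz and Ilp4.

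The zygotic share was also read through lists from other experiments of the series that hold none of these libraries. Alpha-amanitin, an inhibitor of RNA polymerase II, lowered 568 genes (6.67%) at least 2-fold at 1 to 1.5 h, of which 565 were tested here. In E203Q embryos 195 of them were higher (34.5%, beside 27.7% of all genes) and 164 lower (29%, beside 21.6%) than in wild type. Their median was 0.03, which becomes slightly negative with RLE size factors (-0.037). Against the mislocalized line, where 17.2% of all genes were called higher and 26.5% lower, 436 were higher in E203Q and 6 lower, with a median of 1.83. The balance of all calls in that contrast depends on the scaling, with 39.4% of them higher under TMM, 67.8% when scaled by total counts and 49.8% by RLE. Against FlagIntS11WT, where 19.4% of all genes were called higher and 26.2% lower, 195 were higher and 152 lower, with a median of -0.01, and of all calls 42.5% were higher under TMM and 67.4% with total counts. The mislocalized and FlagIntS11WT lines themselves had medians of -1.60 and 0.04 against wild type, contrasts that share the wild type libraries.

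Genes that had fallen at least 2-fold in another IntS11 mislocalization experiment of the series (746, or 8.47% of those tested there) lay, at the median, between the mislocalized line and wild type. Of 730 tested, 153 were higher (21%, beside 27.7% of all genes) and 275 lower (37.7%, beside 21.6%) in E203Q than in wild type. Their median was -0.31, beside -2.05 in the mislocalized and -0.16 in the FlagIntS11WT line. Genes that had risen at least 2-fold there (579, or 6.58%) were mostly above wild type in E203Q embryos. Of 571 tested, 525 were higher (91.9%) and 2 lower (0.35%) in E203Q than in wild type. Their median was 2.68, beside 2.26 in the mislocalized and 0.92 in the FlagIntS11WT line. With the 183 genes of 3 or fewer counts in an arm set at their bound the E203Q median is 2.43. E203Q exceeded FlagIntS11WT for 442 of these genes and was lower for 13, and it exceeded the mislocalized line for 220 and was lower for 57. Over all genes, 1134 (12.4%) were at least 2-fold higher in E203Q than in the mislocalized line and 10 (0.109%) at least 2-fold lower. Against FlagIntS11WT, 1063 (11.6%) were at least 2-fold higher and 130 (1.42%) lower.

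**Figure D4:**
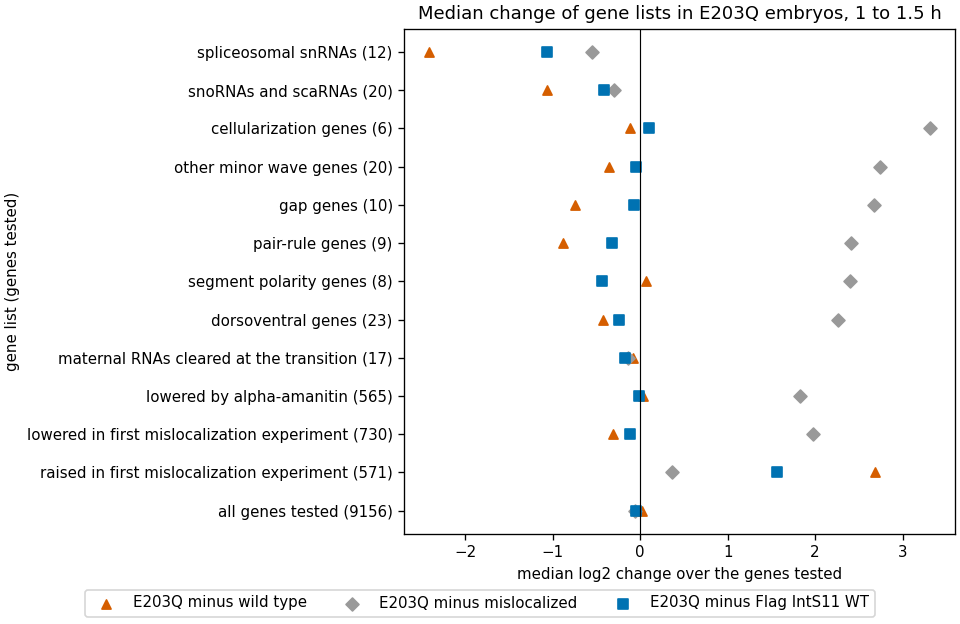
Median log2 change of 12 gene lists and of all genes tested in 3 contrasts of the E203Q embryos at 1 to 1.5 h (horizontal axis), with the number of genes tested in brackets. The 3 contrasts share the E203Q libraries. The zygotic lists, from cellularization to dorsoventral genes and with those lowered by alpha-amanitin, lie between -0.89 and 0.07 against wild type, between -0.43 and 0.10 against FlagIntS11WT and between 1.83 and 3.31 against the mislocalized line, while spliceosomal snRNAs lie below 0 in all 3 and the genes raised by the first mislocalization lie at 2.68 against wild type.

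Among the largest rises were genes that stood much nearer to wild type in FlagIntS11WT embryos. LanA, the laminin alpha chain of basement membranes (chromosome 3L, 6203831 to 6218022), was at 857 and 855 CPM in E203Q and 12.6 and 12.2 CPM in wild type (6.11 ± 0.06, edgeR adjusted p = 9.47e-28). The mislocalized libraries held 781 and 806 CPM and the FlagIntS11WT libraries 30.5 and 29.6 CPM. Ect3, a gene for a predicted beta-galactosidase, was at 104 and 105 CPM in E203Q, 2.39 and 2.09 CPM in wild type, 104 and 109 CPM in the mislocalized line and 2.84 and 2.79 CPM in FlagIntS11WT (5.55 ± 0.10 against wild type). The autophagy gene Atg18b rose from 17.2 and 16.7 CPM to 358 and 354 CPM (4.39 ± 0.06), above the 198 and 197 CPM of the mislocalized line. The endocytic receptor gene mgl rose from 11.6 and 11.3 CPM to 242 and 248 CPM (4.42 ± 0.07), and the mislocalized line had 206 and 213 CPM. The fatty acid synthase gene FASN2 rose from 3 counts over both wild type libraries to 39.5 and 36.9 CPM, a ratio of 332 with a 95% counting interval of 113 to 1612, and FlagIntS11WT held 1.48 and 1.43 CPM. By the annotation snRNA:U5:23D ends inside FASN2 on the same strand, so FASN2 was not among the downstream genes looked up above. Whether its counts include transcripts that run on from this snRNA gene was not tested.

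Other large rises were those of the cytochrome P450 gene Cyp6a20, at 14.7 and 15 CPM in E203Q and 0.0886 and 0.202 CPM in wild type (6.53 ± 0.28), of yellow-c (6.13 ± 0.22) and Vajk1 (5.61 ± 0.27) and of the glycosyltransferase gene Ugt36D1 (4.96 ± 0.26). Some of these were also above wild type in FlagIntS11WT, with 5.41 and 5.65 CPM of yellow-c beside 18.3 and 20.4 CPM in E203Q and 0.354 and 0.202 CPM in wild type. Among 9 basement membrane genes, a list made after seeing the values of LanA, 7 rose (77.8%, beside 27.7% of all genes) and none fell. The perlecan gene trol rose by 3.94 ± 0.30 and LanB1 by 0.92 ± 0.08. LanB2, at 14.2 and 12.4 CPM against 12.1 and 14.6 CPM, was not called.

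Stress and cell death genes were also among the rises. Of 12 apoptosis and p53 genes 6 rose (50%, beside 27.7% of all genes) and 2 fell (16.7%, beside 21.6%). The IAP antagonist skl was at 18.1 and 17.5 CPM in E203Q, 0.0886 and 0.337 CPM in wild type, 4.68 and 3.80 CPM in the mislocalized line and 0.322 and 0.613 CPM in FlagIntS11WT (6.23 ± 0.27 against wild type, edgeR adjusted p = 3.61e-15). Its relatives rpr and hid rose by 3.18 ± 0.32 and 1.18 ± 0.15, and rpr was at 4.14 and 2.98 CPM in E203Q and at most 0.594 CPM in the libraries of the other 3 lines. Xrp1, a stress-induced transcription factor, rose from 2.13 and 2.43 CPM to 14.03 and 12.3 CPM (2.51 ± 0.17), while p53 was at 36.3 and 35.6 CPM against 39.1 and 37.2 CPM and was not called.

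Of 8 small heat shock genes 4 rose (50%, beside 27.7% of all genes) and 2 fell (25%, beside 21.6%). Hsp23 rose from 25.2 and 30.4 CPM to 349.7 and 368 CPM (3.68 ± 0.07) and Hsp22 from 34.5 and 30.3 CPM to 111 and 113 CPM (1.80 ± 0.07), and both were higher still in the mislocalized line. Hsp26, a maternal transcript, fell from 794 and 835 CPM to 542 and 562 CPM (-0.56 ± 0.06). Of 14 other heat shock genes 8 rose (57.1%) and none fell. Their median of 0.77 depends on single libraries (0.425 without the second E203Q library and 1.64 without the first wild type library). Hsp68, an inducible Hsp70-type chaperone, rose from 7.26 and 6.61 CPM to 60.8 and 59.9 CPM (3.13 ± 0.10), above the 28.6 and 26.3 CPM of the mislocalized line. The maternally abundant chaperone gene Hsp83 was at 3682 and 3592 CPM against 3510.1 and 3588 CPM and was not called. The immune regulator pirk, with no count in wild type and 6.88 and 6.82 CPM in E203Q, was at least 59.6-fold higher. The Drosomycin-like gene Drsl5 was at 3.58 and 3.84 CPM, with 1 count in wild type, a ratio of 97.15 with a 95% counting interval of 17.1 to 3871.

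Among markers of tissues that do not exist at this age, those of muscle, cuticle and fat body were often called higher, and the other altered lines also held more of them than wild type. Of those tested, 76.9% of muscle, 56% of cuticle and 100% of fat body markers were higher, beside 27.7% of all genes. Among the genes lowest in wild type (up to 0.761 CPM), 52.4% rose at least 2-fold. Of the tested markers, 8 for muscle, 22 for cuticle and 5 for fat body had 3 or fewer counts in an arm. Such genes could pass the filter through a group where they are high, which favours rises. Of 13 muscle markers tested, all that were on the list, 10 rose and 1 fell, and their summed level was 55.8 and 57.4 CPM in E203Q, 6.11 and 5.66 CPM in wild type, 15.9 and 15.6 CPM in the mislocalized line and 26.1 and 24.4 CPM in FlagIntS11WT. Mhc, the muscle myosin heavy chain, was at 7.51 and 7.38 CPM in E203Q and 0.0886 and 0.202 CPM in wild type (5.53 ± 0.34), and at 5.87 and 6.538 CPM in FlagIntS11WT. The muscle actin gene Act57B was at 13.3 and 15.4 CPM in E203Q, with 3 counts in wild type, a ratio of 126 with a 95% counting interval of 42.8 to 612. Of 113 cuticle genes 25 were tested, of which 14 rose and none fell, and the summed level was 17.3 and 15.99 CPM against 2.04 and 1.89 CPM, beside 10.4 and 10.6 CPM in FlagIntS11WT and 4.61 and 3.98 CPM in the mislocalized line, with 94 of the 113 at 0 in wild type and 45 at 0 in E203Q. Of 10 fat body and hemocyte markers 5 were tested and all 5 rose, from a sum of 0.177 and 0.337 CPM to 9.19 and 7.003 CPM, and 6 were at 0 in wild type. The sum was 3.74 and 3.68 CPM in FlagIntS11WT and 3.20 and 4.04 CPM in the mislocalized line.

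Of 10 neuron and glia markers 8 were tested, 2 rose and none fell, a share of 25% beside 27.7% of all genes called higher, and the sum went from 9.74 and 8.83 CPM to 23.8 and 27.1 CPM. The main part was repo, the glial master regulator, at 13.96 and 15.9 CPM with 1 count in wild type, a ratio of 391 with a 95% counting interval of 69.9 to 15485. The neuronal gene elav was at 4.70 and 6.82 CPM against 6.64 and 5.93 CPM and was not called. Of 13 follicle cell and eggshell markers tested 1 fell and none rose, with sums of 2.25 and 2.54 CPM against 1.68 and 2.36 CPM. None of 12 testis markers was tested, and all 12 were at 0 in wild type and 7 in E203Q. The part of RNA from other or older tissue in the many small rises of E203Q embryos was not tested.

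**Figure D5:**
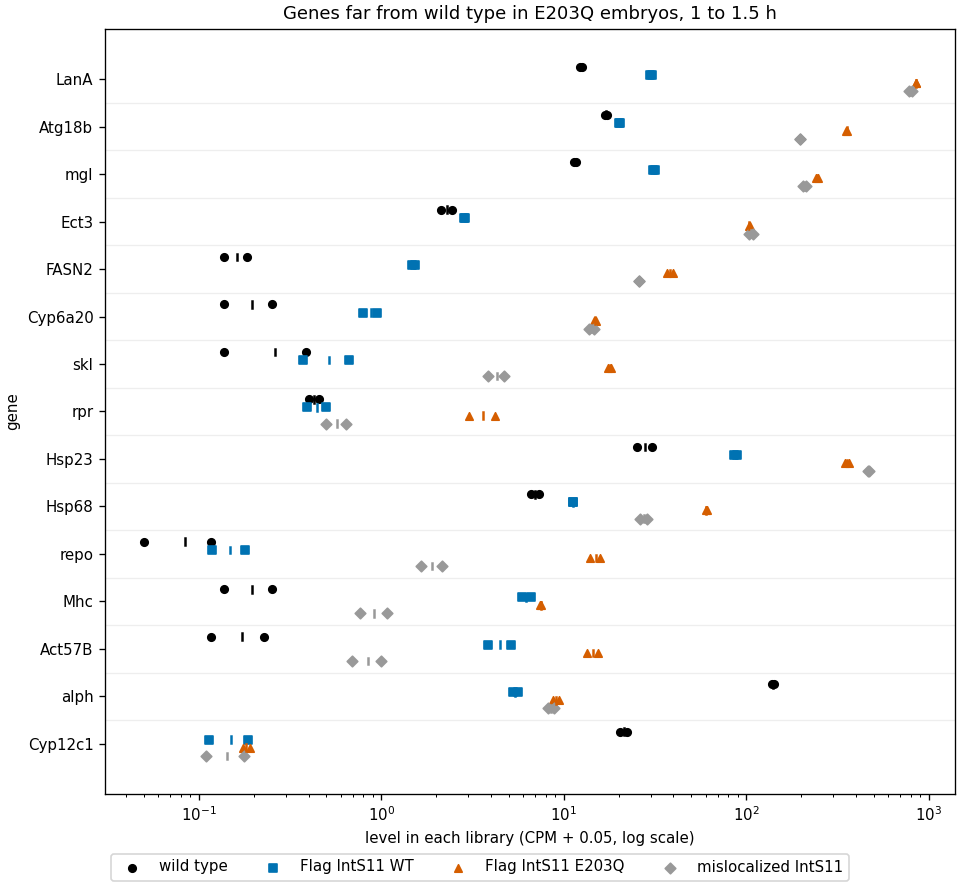
Level of 15 genes far from wild type in each library at 1 to 1.5 h (horizontal axis, CPM + 0.05, log scale), with 2 libraries per line as points and their mean as a short bar. For LanA, Ect3 and Cyp6a20 E203Q lies with the mislocalized line and FlagIntS11WT lies nearer to wild type. For skl, rpr and repo E203Q lies apart from all other lines, and for alph and Cyp12c1 the 3 altered lines lie together below wild type.

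Some of the largest falls were shared by all altered lines. The cytochrome P450 gene Cyp12c1 was at 0.140 and 0.124 CPM in E203Q, 20.4 and 22.2 CPM in wild type, 0.128 and 0.0594 CPM in the mislocalized line and 0.0645 and 0.136 CPM in FlagIntS11WT (-7.25 ± 0.26 against wild type, edgeR adjusted p = 6.41e-17). The phosphatase gene alph was at 9.40 and 8.68 CPM in E203Q, 139 and 141 CPM in wild type, 8.14 and 8.85 CPM in the mislocalized line and 5.54 and 5.24 CPM in FlagIntS11WT (-3.96 ± 0.08). GstE10, a glutathione S-transferase gene, had 3 counts in E203Q and 138 in wild type, and hng3 fell by 2.59 ± 0.17, each with low levels in all 3 altered lines. For these genes the state of IntS11 and any other difference between wild type and the altered lines cannot be told apart. The linker histone copy His1:CG33813 differed: it was at 0.842 and 0.744 CPM in E203Q, 5.76 and 6.81 CPM in wild type, 3.67 and 3.75 CPM in FlagIntS11WT and 0.128 and 0.119 CPM, the lowest, in the mislocalized line (-2.99 ± 0.22 against wild type), a value that is uncertain because the His1 copies are near-identical.

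Of the 1333 genes at least 2-fold above wild type, 1054 were also higher in E203Q than in FlagIntS11WT and 12 lower, beside 19.4% of all genes higher and 26.2% lower. Of the same genes 821 were higher than in the mislocalized line and 43 lower, beside 17.2% and 26.5% of all genes. Of the 206 genes at least 2-fold below wild type, 107 were lower than in FlagIntS11WT and 7 higher, while 15 were lower than in the mislocalized line and 79 higher. These contrasts share the E203Q libraries that selected the genes, so the counts are a description.

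Changes of maternal RNA were mostly small at this age, but falls were more frequent among cleared RNAs and germ plasm genes than over all genes. Of 17 maternal RNAs that are cleared at the transition, 1 rose and 6 fell (35.3%, beside 21.6% of all genes), with a median of -0.09. Transcripts of bcd, the anterior determinant, were at 234 and 244.5 CPM in E203Q and 242 and 237 CPM in wild type (0.00 ± 0.06, edgeR adjusted p = 0.999). The posterior determinant nanos fell from 945 and 909 CPM to 636 and 665 CPM (-0.51 ± 0.05, edgeR adjusted p = 3.02e-09), and the mislocalized line was at 653 and 677 CPM. Of 12 germ plasm genes 1 rose and 9 fell (75%), with a median of -0.23. The rise in both lists was osk, at 1459 and 1448 CPM against 1313 and 1299 CPM (0.15 ± 0.06, edgeR adjusted p = 0.0489), and its call was lost with RLE size factors (0.085, edgeR adjusted p = 0.295) and with any 1 library left out. Of 17 genes of egg activation and RNA decay machinery 8 fell (47.1%) and none rose, with a median of -0.14. Of 88 cytoplasmic ribosomal protein genes 39 rose (44.3%, beside 27.7% of all genes) and 4 fell (4.55%), with a median of 0.11. The mislocalized and FlagIntS11WT lines had medians of 0.15 and 0.28 against wild type. Against FlagIntS11WT none of these genes was higher in E203Q and 53 were lower. Of 36 proteasome subunits 19 rose (52.8%) and 2 fell (5.56%), with a median of 0.15, beside 0.26 and 0.22 in those lines. With RLE size factors the all-gene median went from 0.021 to -0.045. Mitochondrial ribosomal protein genes had 8 rises and 11 falls among 73, a share below that of all genes in both directions.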

How the data were processed

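Per the labels' protocols, embryo total RNA went through rRNA depletion before strand-specific library construction. Build dm6 and the tools Trimmomatic 0.39, STAR 2.7.10a, RSEM 1.3.1 and DESeq2 1.40.2 are listed in the submitters' processing notes. The values analysed were the deposited expected counts, unnormalized RSEM estimates, after rounding to whole numbers. The deposited TPM values, scaled by the authors for length and depth, entered nothing but the naming rule. A current symbol was found for 16623 of the 16680 genes per file. The sources used here do not state how near-identical copies shared reads.

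The 16 rescue libraries were fitted together in edgeR 4.0.16 (R 4.3.3), a mean being estimated for each of the 8 groups. Genes were filtered with filterByExpr, libraries scaled by TMM, and contrasts tested by the robust quasi-likelihood method at a Benjamini-Hochberg threshold of 0.05. The E203Q libraries held 14093816 and 15995005 expected counts and the wild type libraries 11089353 and 14821253. Libraries of a group differed by more than sampling noise. Standard errors were taken from the log2 change and the F statistic. Intervals and floors cover counting error only. The fit was tested on simulated data. The reference lists came from separate fits of 8 alpha-amanitin and 12 mislocalization libraries. Gene positions are from the BDGP6 annotation, the assembly that dm6 names.

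The libraries and the 40 gene lists were chosen with earlier results of these data known. The naming rule took IntS11, IntS9, the 12 largest rises and 12 largest falls (called, separated in TPM, at least 5 TPM in an arm, named genes), and the 4 most abundant and 4 most changed members of each list, or all members of lists with up to 12 tested. The genes downstream of snRNA genes and the basement membrane genes were named after their values were seen. So were mgl, FASN2, spo, sala, SNCF, D, twi, sna and sog. The alternatives tried were DESeq2 1.42.0, scaling by RLE or by total counts, fitting all genes, fitting fewer libraries (the 1 to 1.5 h window, or the compared groups alone), the replicate number as a block, each library left out in turn and reference lists at 4-fold; a 4 kb window around snRNA genes was added after seeing the data. No set test was run. Some genes that the naming rule allows are not reported here.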

Additional observations from a re-analysis of the deposited data

Results flagged for a closer look

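The following genes moved in opposite directions in the 2 collection windows: both E203Q libraries lay on one side of both wild type libraries at 1 to 1.5 h and on the other side at 2.5 to 3 h. The difference between the windows was not tested, and several of the single changes are small or were not called. All values are log2 changes of E203Q against wild type ± SE (n = 2 libraries per group).

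Muscle genes were above wild type at 1 to 1.5 h and below it later. Act57B went from 6.87 ± 0.30 to -7.06 ± 0.17, Mhc from 5.53 ± 0.34 to -7.09 ± 0.18 and sls, the titin-like gene, from 5.26 ± 0.18 to -0.49 ± 0.08. Wild type embryos held a mean of 85.9 CPM of Mhc at 2.5 to 3 h, while E203Q embryos held 0.619 CPM. For Act57B the means were 84.1 and 0.630 CPM, and the summed muscle markers were at 352 and 56.8 CPM. Whether RNA from older embryos or other tissue entered the wild type libraries at 2.5 to 3 h was not tested. The late falls of muscle genes therefore do not show a loss of muscle transcripts in E203Q embryos. The antimicrobial-type gene Drsl5 went from 6.32 ± 0.59 to -6.14 ± 0.61. The basement membrane genes trol and LanB1 went from 3.94 ± 0.30 to -1.47 ± 0.15 and from 0.92 ± 0.08 to -0.98 ± 0.06.

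Several early zygotic genes also started above wild type and were below it later. This held for spo (1.15 ± 0.08, then -0.79 ± 0.06), sala (0.65 ± 0.09, then -1.14 ± 0.06) and hkb (0.38 ± 0.12, then -1.30 ± 0.08). It also held for the insulator factor gene Elba2 (0.26 ± 0.05, then -1.01 ± 0.05), Sry-alpha (0.14 ± 0.05, then -1.46 ± 0.05) and bnk (0.14 ± 0.06, then -0.99 ± 0.05). Only nullo among the cellularization genes went from below to above, from -1.06 ± 0.13 to 1.37 ± 0.13.

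Maternal RNAs of nanos, smg and Hsp26 went from -0.51 ± 0.05 to 0.97 ± 0.06, from -0.09 ± 0.07 to 1.88 ± 0.07 and from -0.56 ± 0.06 to 1.36 ± 0.09. For IntS4 the values were -0.04 ± 0.06 and 0.38 ± 0.07, and for p53 they were -0.08 ± 0.08 and 0.61 ± 0.08. At 1 to 1.5 h smg, IntS4 and p53 were not called.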

How the results depend on the processing

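Against wild type every count of calls stayed within 1.5 times under the 11 alternatives: 3383 to 4854 genes were called, 925 to 1471 were at least 2-fold higher and 171 to 222 at least 2-fold lower. Some counts against the other lines did not. Against the mislocalized line, calls came to 2504 with DESeq2 (1220 lower, 4 of them at least 2-fold) and 2248 with only the 1 to 1.5 h libraries (887 lower). Lower calls were 1280 with only the groups compared, 874 with total counts, and 1549 to 1853 with a library left out, lowest without mislocalized library 2. At least 2-fold lower were 16 without the filter and 7 to 16 with a library left out, highest without E203Q library 2. Against FlagIntS11WT, 1438 were lower with only the 1 to 1.5 h libraries and 1120 with total counts; with only the groups compared 2380 were called, 881 of them lower. The cause was not tested.

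Replicate numbers are shared between groups only as numbers: differences between the libraries of a group correlated between groups at -0.114 to 0.127. With the replicate number as a block, 4803 genes were called against wild type, 4304 against the mislocalized line and 4497 against FlagIntS11WT. When scaled by total counts, the all-gene median went from -0.061 to 0.040 against the mislocalized line and from -0.042 to 0.059 against FlagIntS11WT. Of 111 genes followed, 100 kept their side of the threshold throughout and none reversed. Calls were lost by mRF1 (without E203Q library 1 or wild type library 2), CG1142 (without either first library), Sry-alpha, bnk, hkb, osk, hb, dhd, halo and SNCF, and 7SK gained one without the filter (0.165), with the block (0.156) and without E203Q library 1 (0.269). The median of genes raised in the first mislocalization experiment was 4.01 at 4-fold, and within 4 kb of snRNA genes 4 genes rose at least 2-fold. Wild type library 1 was the shallowest, and genes near 0 in wild type are limited by counting.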
